A study of Mus musculus with 64 samples.

Results

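The response of resting wild-type natural killer (NK) cells to tumour-cell conditioned medium (CM) was described from 8 of the 64 libraries of the series. These were the 4 libraries labelled as CM-treated, unstimulated wild type and the 4 labelled as untreated, unstimulated wild type. They were chosen by their labels and not by any measured value. NK cells are innate lymphocytes known for killing tumour cells and virus-infected cells and for releasing cytokines.

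Prostaglandin E2 (PGE2) is a lipid mediator made from arachidonic acid by cyclooxygenases. On NK cells it is known to act through the receptors EP2 (gene Ptger2) and EP4 (gene Ptger4), which couple to a stimulatory G protein and raise cyclic AMP. Cyclic AMP activates protein kinase A, which phosphorylates the factor CREB and its relatives, and the pathway is known for dampening NK cytotoxicity and cytokine release.

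The wild-type cells were C57BL/6J spleen NK cells grown for 5 days with low doses of IL-2 and of IL-15 complexed with its receptor alpha chain. They then spent 5 h in the test condition. The CM came from BRAFV600E control cells that produce PGE2, so other products of those cells and spent medium differ between CM and untreated cells together with PGE2 and cannot be told apart from it in wild-type cells alone. For comparison, 2 wild-type libraries received PGE2 at 100 ng/ml. The same CM comparison was also labelled for Ptger2-/-Ptger4fl/fl cells (here EP2KO, 4 CM and 4 untreated libraries), which lack EP2 and carry floxed Ptger4 alleles without Cre. It was labelled as well for GzmbCrePtger2-/-Ptger4fl/fl cells (here DKO, 3 CM and 3 untreated libraries), in which a Cre named for Gzmb acts on the floxed Ptger4 alleles. All these groups were grown and timed alike, and none was stimulated through an activating receptor. The labels do not say whether replicates came from separate mice, so p-values measure only the spread between libraries, which may be technical. For the gene tests that spread was estimated over all 64 libraries in 18 groups, stimulated ones included.

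Levels are given as CPM (counts scaled to a common library size of 1e6, after TMM scaling), and differences as log2 CM minus untreated with their standard error (SE). A gene was called at a Benjamini-Hochberg adjusted p under 0.05 over the 10723 genes tested. For 1968 of these genes, called or not, the CPM of the wild-type CM and untreated libraries did not overlap. The CM libraries were shallower, with totals from 765903 to 1013588 counts against 1026568 to 1352953 in untreated cells. NK marker genes made up 0.985% ± 0.0755 of counts with CM and 1.33% ± 0.0767 in untreated cells (SD, n = 4 each), and all 13 of these genes were detected. The B-cell markers took 0.00824% of counts in untreated and 0.00475% in CM libraries on average, the T-cell markers 0.0606% and 0.0470%, and the fibroblast and endothelial markers 0.00683% and 0.0105%, each without overlap between groups. Of 9 B-cell markers, 5 were at 0 in all 8 libraries, and 7 of 8 melanoma markers had fewer than 10 counts summed over all 8 libraries. In the same sums Ighm had 553 counts and no other B-cell marker more than 11. Pecam1 had 701, and 9 of 10 fibroblast and endothelial markers had fewer than 10. Trbc1 (2454) and Trbc2 (1660) were the highest T-cell markers, while Cd4 had 2, Cd8a 5 and Cd5 1. These shares thus followed few genes, and which cells the counts came from was not tested. The macrophage and dendritic-cell markers together took from 0.0130% to 0.0278% of untreated and from 0.0114% to 0.0299% of CM counts. Mitochondrial genes took 8.93% ± 1.25 of counts in untreated and 11.1% ± 1.25 in CM libraries (SD, n = 4 each). Over 13 such library summaries, the smallest exact two-sided permutation p was 0.0286, the smallest that 4 against 4 allows, and 0.0619 after adjustment. The part of these differences in the gene results was not tested.

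CM changed the level of 883 genes in resting wild-type cells, which is 8.23% of the genes tested. Of these, 488 were higher with CM (4.55%) and 395 were lower (3.68%). The list counts below stand beside these shares of all genes tested. The change exceeded 2-fold for 136 of the higher and 94 of the lower genes, and 4-fold for 20 and 8. The largest changes were ranked among called genes at a mean log2 CPM of at least 4 whose groups did not overlap. Predicted genes, antigen receptor segments and sex-linked genes were passed over. In that ranking Ier5l, an immediate-early response gene, rose most, and Serpina3f, a serine protease inhibitor gene, fell most. The 4 untreated libraries held Serpina3f at 33.4, 55.0, 29.5 and 33.2 CPM and the CM libraries at 7.79, 4.10, 6.84 and 6.19 CPM. The count of called genes depended on single control libraries. It was 518 without untreated replicate 1 (233 higher, 285 lower) and 486 without untreated replicate 4. With only these 8 libraries fitted it was 1759 (868 higher, 891 lower).

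The genes that moved up and down differed in annotated length. The 488 higher genes had a median span of 55.5 kb in the GENCODE annotation and the 395 lower genes 12.1 kb, against 21.3 kb for all genes tested. Across all tested genes the median log2 difference ran from -0.13 in the shortest to 0.19 in the longest of 4 equal groups of genes by span. In DKO cells the same medians were -0.06 and 0.09, and in EP2KO cells -0.04 and 0.09, although CM called no gene in DKO cells. Malat1, a long nuclear non-coding RNA, was at 5892, 8326, 8269 and 6193 CPM in untreated and 9132, 14476, 12557 and 10713 CPM in CM libraries, and was higher with CM (log2 difference 0.71 ± 0.21, adjusted p = 0.0255). Its call was lost under 5 of the alternative settings. The part of gene length in the called changes was not tested.

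**Figure D1:**
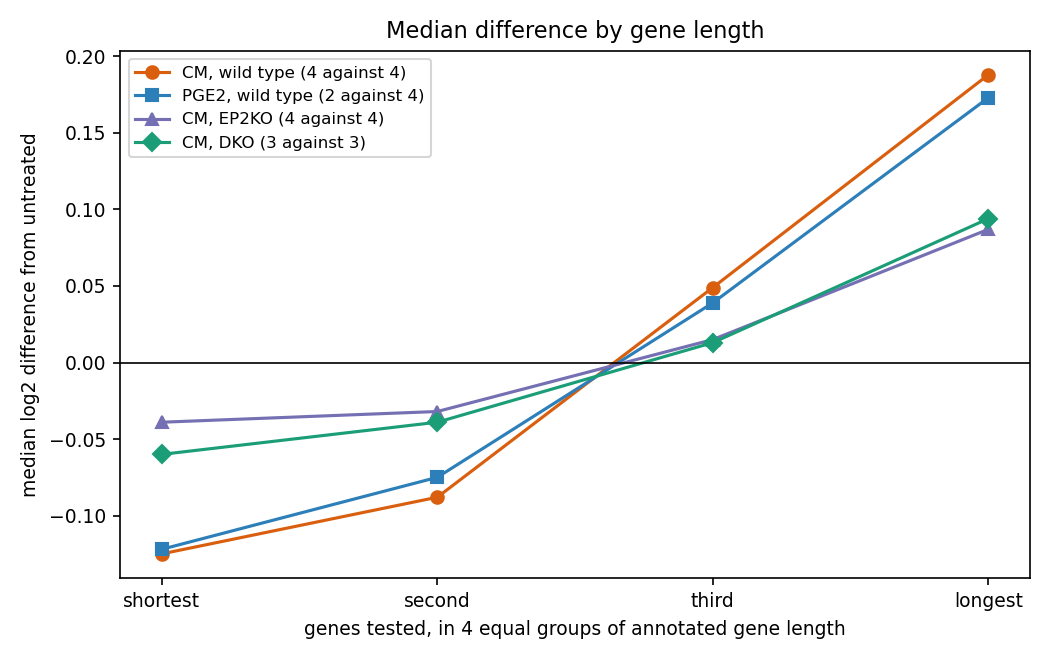
Median log2 difference from untreated (vertical axis) of the genes tested, in 4 equal groups by annotated gene length (horizontal axis), for 4 comparisons shown by colour and marker. The medians run from negative in the shortest to positive in the longest genes in each comparison, with CM in wild-type cells from -0.13 to 0.19.

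Genes known to be induced through cyclic AMP, protein kinase A and CREB were among the strongest rises. Of 33 tested members of this list, 12 were called higher and none lower, and the median log2 difference was 0.47 against 0.01 for all genes. Crem encodes a cyclic AMP responsive factor that includes a feedback repressor. It was at 103, 76.6, 87.7 and 83.9 CPM in untreated libraries and at 366, 258, 405 and 360 CPM with CM. Every CM library lay above every untreated one (log2 difference 1.98 ± 0.19, adjusted p = 2.92e-12). Fosl2, an AP-1 subunit, was at 109, 104, 126 and 106 CPM and rose to 365, 387, 541 and 506 CPM. Vegfa, the angiogenic growth factor, was at 10.2, 8.77, 8.57 and 6.65 CPM and rose to 46.7, 42.0, 45.2 and 58.8 CPM, a 5.57-fold difference. Ier5l was at 16.7, 7.18, 15.2 and 15 CPM and rose to 111, 70.7, 114 and 130 CPM. These groups did not overlap for any of the 3 genes, but they are among the largest rises, which were chosen for lacking overlap.

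Some genes whose products restrain G protein or cyclic AMP signalling were among the called rises. Rgs2, which shortens the activity of G protein alpha subunits, was at 114, 148, 148 and 139 CPM in untreated and 464, 455, 554 and 568 CPM in CM libraries (log2 difference 1.90 ± 0.15, adjusted p = 6.91e-15). Its relative Rgs1 rose by 1.64 ± 0.15 (SE) on the log2 scale. The phosphodiesterase genes Pde4b, Pde4d and Pde7a, whose products degrade cyclic AMP, and the kinase gene Sik1 were among the 12 called members. Cxcr4, a chemokine receptor, was at 14.1 to 23.3 CPM in untreated and 45.2 to 70.1 CPM in CM libraries. Of 18 tested G protein subunits and regulators of G protein signalling, 4 were higher and 1, Rgs10, was lower. The 4 were Rgs2, Rgs1, Gna13 and Gnaq, and the last 2 encode G protein alpha subunits. Without untreated replicate 4 the counts were 3 and 0. The median of the 18 was -0.17 on the log2 scale, and 6 of them had a positive difference.

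The receptors themselves were weakly detected. Ptger2 was at 7.27, 5.58, 3.81 and 3.32 CPM in untreated libraries and 6.81, 5.12, 4.11 and 6.19 CPM with CM (log2 difference 0.15 ± 0.40, adjusted p = 0.878). Ptger4 was at 14.5, 29.5, 21.9 and 24.9 CPM and at 16.5, 21.5, 9.58 and 11.4 CPM (log2 difference -0.59 ± 0.26, adjusted p = 0.15). Of 19 tested receptors and enzymes of prostaglandin and cyclic AMP handling, 1 was higher, the kinase anchor gene Akap13 (0.63 ± 0.17), and none was lower. The share higher was close to the 4.55% of all genes tested.

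**Figure D2:**
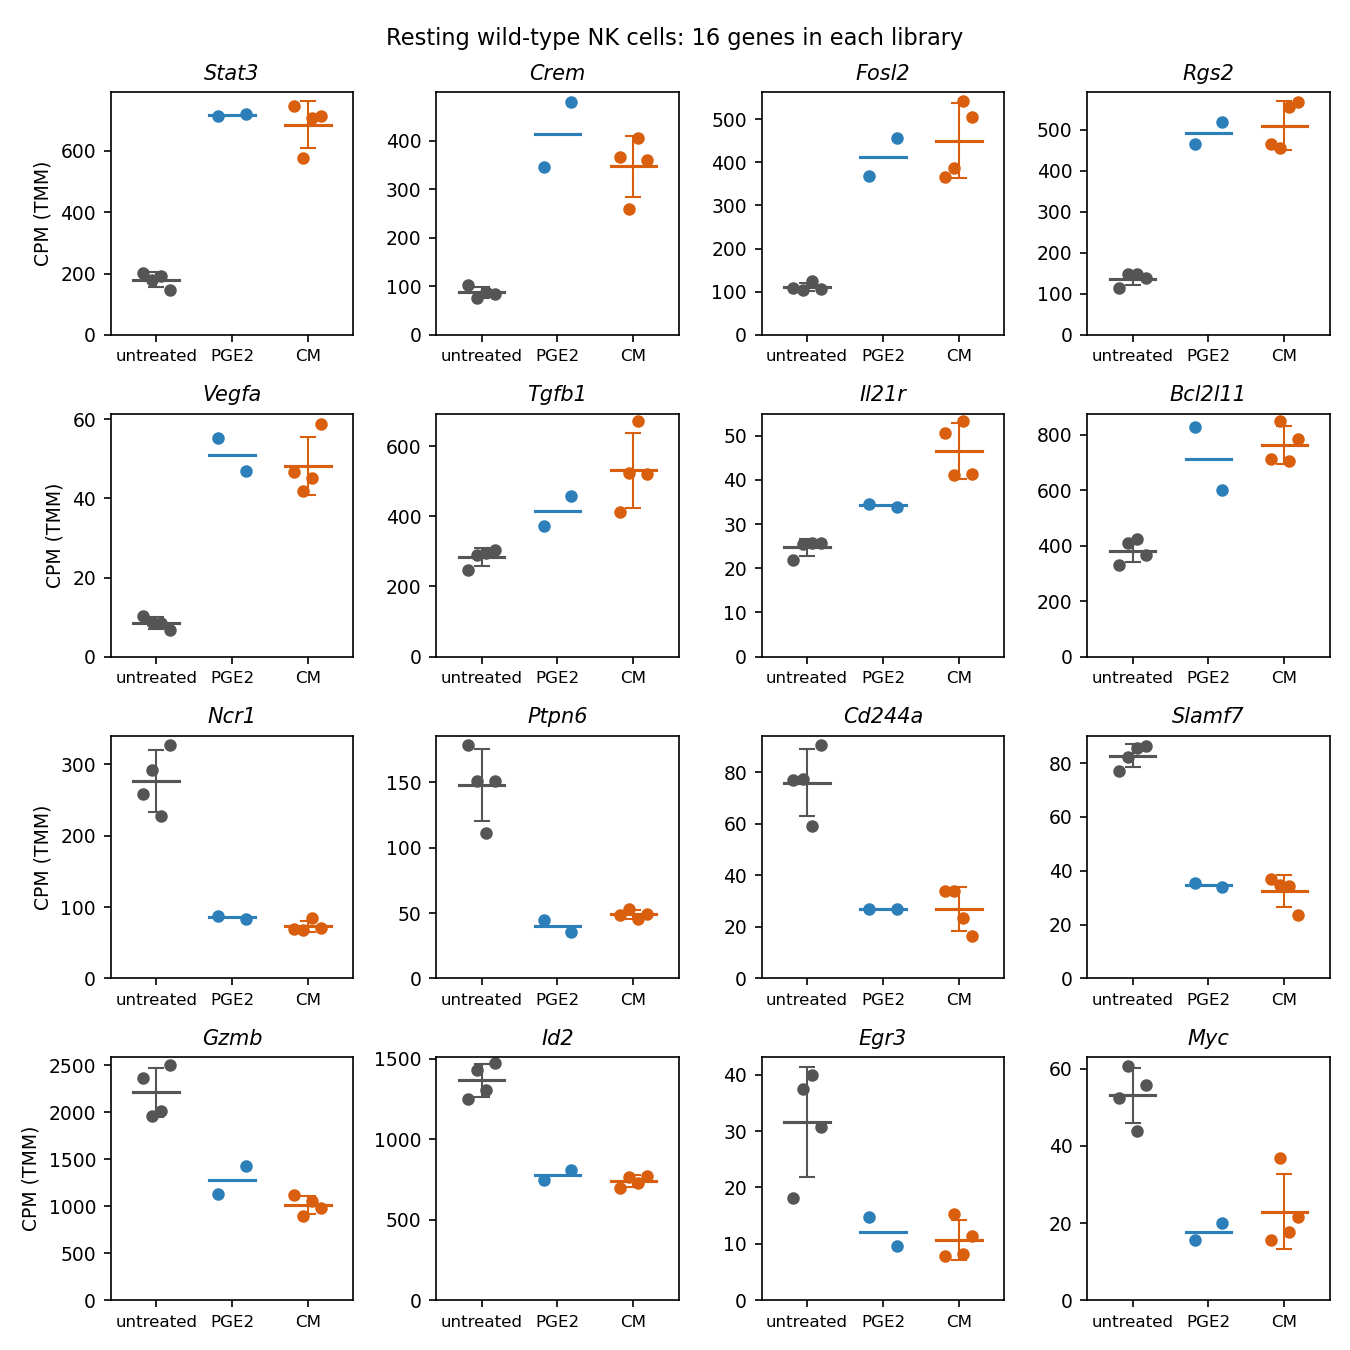
CPM (vertical axes, from 0) of 16 genes in each resting wild-type library, with 4 untreated, 2 PGE2 and 4 CM libraries as points. Horizontal lines are group means and error bars are SD where a group has 4 libraries. Stat3 lies between 576 and 747 CPM with CM and between 146 and 203 CPM in untreated cells, and Ncr1 shows the opposite order.

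Among cytokine signalling genes, Stat3 had the smallest p. Stat3, the factor downstream of IL-6-family cytokines, IL-10 and IL-21, was at 203, 179, 193 and 146 CPM in untreated and 747, 576, 709 and 713 CPM in CM libraries (log2 difference 1.93 ± 0.13, adjusted p = 1.61e-17, also the smallest of all genes). Of 19 tested STAT, JAK and STAT3 target genes, 5 were higher (Stat3, Fosl2, Il21r, Stat5b and Stat5a) and 1, Bcl3, was lower, while 13 were not called. Il21r, the IL-21 receptor, was at 21.8, 25.5, 25.7 and 25.8 CPM and rose to 50.6, 41.0, 53.4 and 41.3 CPM. Of 26 tested cytokine receptors, 5 were higher: Il21r, Tnfrsf1b, Tgfbr2, Il2rb and Ifngr1, while 20 were not called. Il2rb, the signalling chain shared by the IL-2 and IL-15 receptors, rose by 0.42 ± 0.11 on the log2 scale from 796 to 853 CPM to 1066 to 1154 CPM. The single cytokine receptor that fell was Il27ra, from 16.2 to 22.3 CPM to 6.81 to 8.26 CPM. With no low-count filter 1 receptor was higher and 2 were lower.

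Targets of IL-2 and IL-15 signalling through STAT5 moved both ways. Among 23 tested, 4 were higher (Dusp5, Nfil3, Il2rb and Bcl6) and 6 lower (Pim2, Ccnd3, Myc, Gzmb, Ccnd2 and Socs1). Over all genes tested, 4.55% were higher and 3.68% lower. Without untreated replicate 1, or with no low-count filter, 2 were higher and 5 lower. Pim2, a survival kinase, was at 44.3, 52.6, 39.1 and 54.0 CPM in untreated and 16.5, 24.6, 13.7 and 8.26 CPM in CM libraries. Ccnd3, a G1 cyclin, fell by 0.89 on the log2 scale. Dusp5, a phosphatase that inactivates ERK, rose from 115 to 146 CPM to 229 to 289 CPM.

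Calls among genes of the TGF-beta response were all rises. Of 20 tested, 13 were not called, 7 were higher (Pmepa1, Ctla2a, Skil, Tgfbr2, Smad4, Smad7 and Tgif1), none was lower, and the median log2 difference was 0.38, where 4.55% of all genes were higher. Pmepa1, a membrane protein gene that limits TGF-beta signalling, was at 43.6, 77.4, 71.5 and 42.4 CPM and rose to 133, 203, 208 and 164 CPM (log2 difference 1.59 ± 0.22, adjusted p = 1.63e-07). Skil, which encodes the SMAD co-repressor SnoN, rose by 0.94 ± 0.19. The ligand gene Tgfb1 was at 246, 289, 294 and 303 CPM and rose to 411, 523, 671 and 521 CPM, above every untreated library. Nt5e, which encodes the ectoenzyme CD73 that makes adenosine, was at 4.15 to 8.77 CPM and rose to 18.5 to 23.6 CPM. The list count fell to 3 without CM replicate 3 and with no low-count filter, and to 4 without CM replicate 2, untreated replicate 1 or untreated replicate 4.

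Activating receptors and their adaptors were on the falling side. Of 29 tested, 11 were lower (Ncr1, Cd244a, Slamf7, Cd160, Klrb1a, Klrb1c, Lat, Klrb1f, Lcp2, Cd48 and Vav1), none was higher, and the median log2 difference was -0.42. Ncr1 encodes NKp46, a natural cytotoxicity receptor that marks the NK lineage. It was at 258, 293, 228 and 327 CPM in untreated and 69.1, 67.6, 84.9 and 71.2 CPM in CM libraries (log2 difference -1.92 ± 0.17, adjusted p = 6.84e-14). Cd244a, which encodes the SLAM-family receptor 2B4, was at 77.0, 77.4, 59.1 and 90.6 CPM and fell to 34.1, 33.8, 23.3 and 16.5 CPM. Slamf7, another SLAM-family receptor, fell from 77.0 to 86.4 CPM to 23.7 to 37.0 CPM. Klrb1c, which encodes the receptor NK1.1 of this mouse strain, fell from 441 to 489 CPM to 271 to 318 CPM. The Klrb1 genes are close relatives, and how the authors' counting split reads between them is not given in the sources used here. The count of 11 became 6 without CM replicate 4, and 7 without CM replicate 3 or untreated replicate 4.

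The inhibitory side was mixed. Among 23 tested inhibitory receptors and phosphatases, 3 were higher (Nt5e, Inpp5d and Tigit) and 2 lower (Ptpn6 and Cd96). The shares of all genes tested were 4.55% higher and 3.68% lower. Ptpn6, which encodes the phosphatase SHP-1 recruited by inhibitory receptors, was at 179, 151, 111 and 151 CPM and fell to 48.7, 53.3, 45.2 and 49.5 CPM. Inpp5d, which encodes the lipid phosphatase SHIP1, was at 96.7, 133, 126 and 120 CPM and rose to 148, 207, 159 and 148 CPM. With untreated replicate 1 or CM replicate 2 left out, 1 of the 23 was higher and 2 were lower.

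Cytotoxic granule genes moved in both directions, with Gzmb the most abundant of those that fell. Of 25 tested, 4 were lower (Gzmb, Ctsd, Ctsw and Nkg7) and 3 higher (Serpinb6b, Lyst and Serpinb9), and the median log2 difference was 0.00. Gzmb, the death-inducing protease granzyme B, was at 2359, 1961, 2012 and 2502 CPM in untreated and 1117, 892, 1057 and 983 CPM in CM libraries (log2 difference -1.13 ± 0.23, adjusted p = 0.000583). Gzma, granzyme A, was at 2919 to 3807 CPM and at 2405 to 3467 CPM, and its groups overlapped (log2 difference -0.14 ± 0.21, adjusted p = 0.739). The pore-forming perforin gene Prf1 was at 350, 338, 337 and 385 CPM and at 265, 231, 257 and 312 CPM. Its groups did not overlap, but it was not called (log2 difference -0.41 ± 0.18, adjusted p = 0.163). The counts were 1 higher and 3 lower without untreated replicate 4 or CM replicate 2, and 0 higher and 4 lower without CM replicate 1.

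Secreted factors other than Vegfa and Tgfb1 were lower or not called. Of 24 tested cytokines, chemokines and growth factors, 3 were lower (Ltb, Flt3l and Tnfsf14). Ltb, lymphotoxin beta, was at 278, 347, 272 and 331 CPM and fell to 143, 142, 144 and 136 CPM, a narrow band. Flt3l, the growth factor for dendritic cells, fell from 40.0 to 55.7 CPM to 22.4 to 31.5 CPM. The NK effector cytokine gene Ifng was at 196 to 242 CPM and at 151 to 240 CPM, overlapping groups (log2 difference -0.18 ± 0.19, adjusted p = 0.61). Xcl1, a chemokine for cross-presenting dendritic cells, was at 2495 to 3012 CPM and at 1803 to 2408 CPM (log2 difference -0.43 ± 0.17, adjusted p = 0.0977). Ccl5, another chemokine, differed by -0.21 ± 0.20 on the log2 scale (adjusted p = 0.578).

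Among 26 tested chemokine receptor, adhesion and egress genes, 2 were higher (Cxcr4 and Itga4) and 5 lower (Cd69, Itgax, Itgb2, Cxcr6 and Icam1). By comparison, 4.55% of all genes tested were higher and 3.68% lower. Cd69, an activation marker that retains lymphocytes in tissue, was at 48.0, 60.6, 48.6 and 59.0 CPM and fell to 38.0, 29.7, 35.6 and 29.9 CPM. Itgb2, the beta chain of LFA-1, fell from 106 to 123 CPM to 80.8 to 87.6 CPM. The counts for these 26 genes moved with single libraries and settings. They were 1 higher and 3 lower without CM replicate 4, 4 and 3 without CM replicate 1, 5 and 5 with DESeq2 and 4 and 5 at a minimum count of 30. The higher count was also 1 without CM replicate 2, untreated replicate 1 or untreated replicate 4, and 3 without CM replicate 3 or untreated replicate 3.

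Lineage transcription factors moved both ways. Of 27 tested, 6 were higher (Ikzf2, Foxo1, Bach2, Nfil3, Irf8 and Foxp1) and 2 lower (Id2 and Tbx21). Over all genes tested, 4.55% were higher and 3.68% lower. Id2, an inhibitor of E proteins on which NK cells depend, was at 1251, 1432, 1308 and 1471 CPM and fell to 697, 769, 725 and 770 CPM. Ikzf2, which encodes Helios, was at 71.2, 57.4, 85.7 and 57.3 CPM and rose to 256, 158, 212 and 190 CPM. Foxo1 and Bach2, transcription factors known for holding lymphocytes in a less differentiated state, rose by 0.90 ± 0.15 and 1.05 ± 0.17 on the log2 scale. Without untreated replicate 1 or CM replicate 3, the counts were 4 higher and 1 lower.

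Among the AP-1, EGR and NR4A factors, falls outnumbered rises. Of 18 tested, 5 were lower (Egr3, Jund, Egr1, Egr2 and Fosl1) and Fosl2 alone was called higher. Without CM replicate 4, 3 were lower. Egr3, an activation-induced zinc-finger factor, was at 18.2, 37.5, 40.0 and 30.7 CPM and fell to 7.79, 15.4, 8.21 and 11.4 CPM. Egr1 was at 26.9 to 37.4 CPM and at 10.7 to 27.4 CPM, and was lower (log2 difference -1.01 ± 0.26, adjusted p = 0.00684) although its groups overlapped. Nr4a1, an orphan nuclear receptor often induced by cyclic AMP, was at 37.1 to 41.5 CPM and at 27.9 to 37.0 CPM (log2 difference -0.31 ± 0.25, adjusted p = 0.487). Of 19 NF-kB pathway genes tested, 3 were lower (Nfkbia, Bcl3 and Icam1) and Tnfaip3, which encodes the feedback inhibitor A20, rose from 85.8 to 99.7 CPM to 234 to 293 CPM. The lower count was 1 without untreated replicate 1 or 4, or without CM replicate 1, 2 or 4. Over all genes tested, 4.55% were higher and 3.68% lower.

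Of 30 tested ribosome biogenesis genes, 16 were called lower and none higher. The 16 became 11 without CM replicate 4, and 12 without untreated replicate 2 or 4 or CM replicate 3. Without untreated replicate 1 or CM replicate 1 there were 13. All 30 had a negative log2 difference, with a median of -0.58 and a range from -1.13 to -0.07. Dkc1, the pseudouridine synthase of box H/ACA particles, was at 117, 169, 138 and 150 CPM and fell to 67.2, 81.0, 72.5 and 75.3 CPM (log2 difference -0.96 ± 0.14, adjusted p = 1.71e-06). Gnl3, which encodes nucleostemin, fell from 111 to 137 CPM to 60.9 to 87.1 CPM. Wdr43, a factor of the small-subunit processome, fell from 181 to 237 CPM to 108 to 139 CPM. Myc, a transcription factor known to drive these genes, was at 52.3, 60.6, 43.8 and 55.7 CPM and fell to 15.6, 36.9, 17.8 and 21.7 CPM. Of 15 genes of the Myc and MAX network, Myc and Nme1 were lower and Mxd1 and Mxi1, antagonists of Myc, were higher. Without untreated replicate 1, CM replicate 2 or CM replicate 4, 1 of the 15 was higher and 1 lower. Over all genes tested, 4.55% were higher and 3.68% lower.

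Promoter windows of 300 bases, from 250 before to 50 after the annotated start, were read from RefSeq (GRCm38.p6) and matched 26 of the 30 ribosome biogenesis genes and all 16 of those called. The E-box CACGTG, which Myc and MAX bind and which reads the same on both strands, was present in 7 of the 26 (26.9%) and in 3 of the 16 called genes. It was present in 12.1% of tested genes with a window and in 8.09% of all genes of the table. The cyclic AMP response element TGACGTCA, also the same on both strands, was in none of the 26 and in 3.98% of tested genes with a window. Among all genes called lower with CM the E-box was in 64 of 317 with a window (20.2%), and among those called higher in 44 of 366 (12%). The cyclic AMP element was in 3.28% of the higher and 2.52% of the lower genes with a window. Windows matched 74.7% of all tested genes, 75% of the higher and 80.3% of the lower. The 3 called genes with the E-box are shown because their windows hold the motif, which is in capitals. They are Nop2 (chr6:125131633-125131932, plus strand), with the motif 60 bases before the start, Tsr1 (chr11:74897830-74898129, plus strand), with it 25 bases after, and Wdr43 (chr17:71615965-71616264, plus strand), with it 18 bases after.
Nop2: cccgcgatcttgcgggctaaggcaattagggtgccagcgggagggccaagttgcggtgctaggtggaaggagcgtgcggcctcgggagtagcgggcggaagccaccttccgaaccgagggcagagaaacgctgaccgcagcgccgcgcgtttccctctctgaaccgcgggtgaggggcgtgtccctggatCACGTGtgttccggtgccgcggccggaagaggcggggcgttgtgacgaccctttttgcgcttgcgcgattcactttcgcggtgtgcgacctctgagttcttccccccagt
Tsr1: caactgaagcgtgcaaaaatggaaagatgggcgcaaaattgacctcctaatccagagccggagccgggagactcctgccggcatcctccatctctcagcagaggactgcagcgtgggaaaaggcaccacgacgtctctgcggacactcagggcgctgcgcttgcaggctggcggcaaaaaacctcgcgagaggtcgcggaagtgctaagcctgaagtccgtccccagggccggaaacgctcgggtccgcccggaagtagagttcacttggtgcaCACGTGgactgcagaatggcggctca
Wdr43: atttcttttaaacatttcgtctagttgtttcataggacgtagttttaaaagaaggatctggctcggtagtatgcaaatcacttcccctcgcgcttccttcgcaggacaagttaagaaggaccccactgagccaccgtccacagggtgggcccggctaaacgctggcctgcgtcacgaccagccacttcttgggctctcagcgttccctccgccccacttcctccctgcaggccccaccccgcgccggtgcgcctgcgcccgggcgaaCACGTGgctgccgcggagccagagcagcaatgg
A match is a description of these letters and not evidence of binding.

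Antigen-presentation genes were lower in part. Of 19 tested MHC class I genes, 4 were lower (Psmb10, Psme2, H2-T23 and H2-M3) and none was higher. Psmb10, an immunoproteasome subunit, was at 179, 167, 166 and 188 CPM and fell to 140, 106, 129 and 117 CPM. H2-T23, which encodes the NKG2A ligand Qa-1, was at 81.9 to 95.5 CPM and at 46.1 to 82.1 CPM, with the groups just overlapping. The list had 2 called members without untreated replicate 1, 2 or 4 or CM replicate 1, 2 or 4.

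Hypoxia-inducible genes were mostly on the rising side. Of 21 tested, 5 were higher (Vegfa, Ndrg1, Hif1a, Rora and Mxi1) and 1, Fam162a, was lower. Lists share members: Vegfa is also counted in the cyclic AMP list and Mxi1 in the Myc and MAX list. The call of Mxi1 was lost under 6 settings. With 1 library left out, 4 or 5 of the 21 were higher and 0 to 2 lower. Hif1a, the hypoxia-regulated transcription factor, was at 138, 103, 120 and 116 CPM and rose to 211, 191, 268 and 207 CPM. Of 21 tested glycolysis and nutrient transport genes, 1 was higher (Slc3a2) and 1 lower (Slc1a5), both amino acid transport genes, a share close to the 8.23% of all genes. The 19 NRF2 and oxidative stress genes and the 5 aryl hydrocarbon receptor targets tested had no called member by edgeR or DESeq2, with 5 and 1 members, respectively, at an unadjusted p under 0.05 by edgeR. Of all 10723 genes tested, 2456 were under that unadjusted threshold, a similar share.

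Several stress and growth lists had 1 to 4 called members each, where 8.23% of all genes tested were called. Of 26 tested interferon-stimulated genes, 1 was lower (Socs1). Of 29 genes of the amino acid response, 2 were higher (Slc3a2 and Cebpb) and 2 lower (Slc1a5 and Tars). Of 31 cell-cycle genes, 1 was higher (Cdkn1b, which encodes the inhibitor p27) and 2 lower (Mcm3 and Ccne1), and without untreated replicate 1 none was called. Of 15 BCL2-family genes, the pro-apoptotic Bcl2l11 alone was called, rising from 329 to 424 CPM to 704 to 850 CPM. Of 28 lipid synthesis genes, Dgat1, which catalyses the last step of triglyceride synthesis, rose from 23.3 to 36.3 CPM to 73.8 to 137 CPM, and Fdps fell. The amino acid response had 1 call each way without untreated replicate 1, 3 or 4 or CM replicate 1, 3 or 4.

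**Figure D3:**
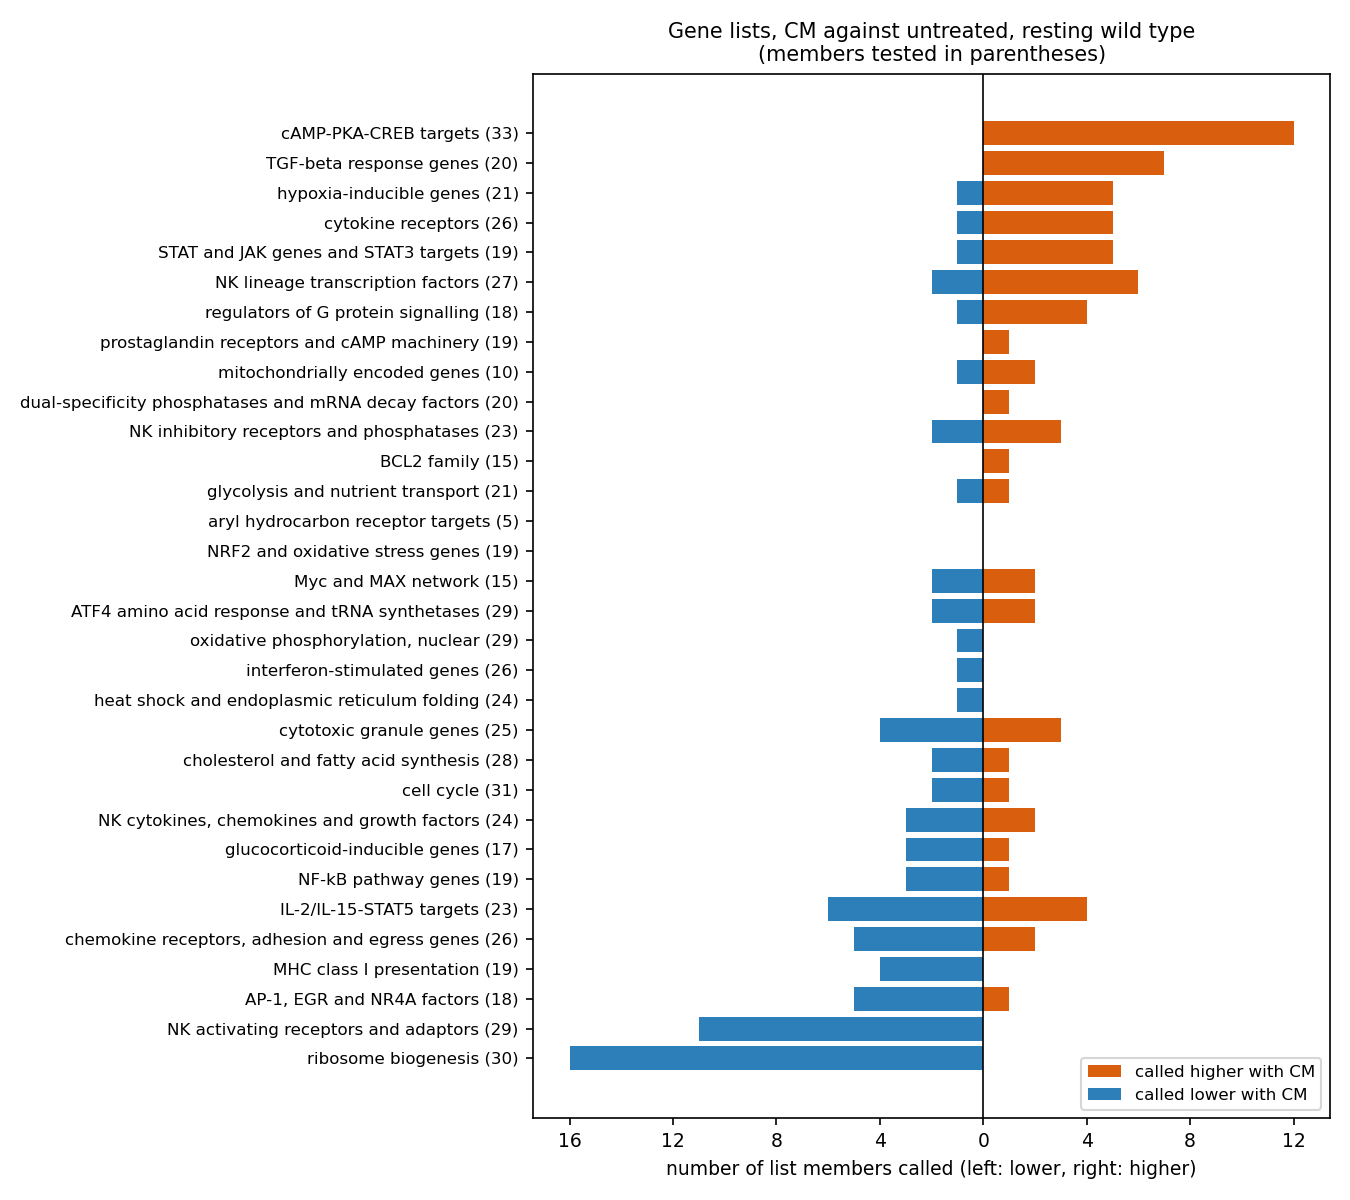
Number of members called higher (right) and lower (left) with CM in resting wild-type cells for each of 32 gene lists (vertical axis, members tested in parentheses). The cyclic AMP list has 12 higher and 0 lower, and the ribosome biogenesis list 0 higher and 16 lower.

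Outside the lists, the largest relative rises included Plxnc1, Abcb1b and Parp8. Abcb1b, a multidrug efflux pump, rose from 107 to 140 CPM to 286 to 583 CPM. Among the falls, Asb2, a substrate adaptor of a ubiquitin ligase, was at 59.6, 63.8, 38.1 and 55.7 CPM and fell to 17.5, 13.3, 16.4 and 9.29 CPM. Chn2, a Rac GTPase-activating protein, fell by 1.80 on the log2 scale and Atad3a, a mitochondrial membrane ATPase, by 1.61.

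The largest shifts in absolute CPM included those of Stat3, Gzmb, Id2, Malat1 and Bcl2l11, described above, and of other abundant transcripts. Fth1, ferritin heavy chain, was at 1162, 1136, 1045 and 1224 CPM and rose to 2383, 1585, 2145 and 2196 CPM. Emb, the adhesion protein embigin, rose from 395 to 501 CPM to 871 to 1338 CPM. Pfn1, the actin-binding profilin, was at 1698, 1451, 1450 and 1857 CPM and fell to 734, 658, 771 and 822 CPM. Tmsb4x, another actin-binding protein gene, fell from 4666 to 5175 CPM to 3286 to 3664 CPM. Cd52, a short surface glycoprotein gene, fell from 1584 to 1800 CPM to 972 to 1057 CPM. The mitochondrial ribosomal RNA mt-Rnr1 was at 20686 to 33020 CPM and at 28295 to 42010 CPM, overlapping groups (log2 difference 0.49 ± 0.16, adjusted p = 0.0388), and its call was lost under 5 alternative settings. With mitochondrial genes left out of the counts, 2 of the named calls were lost, Tars and H2-M3.

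CM was also set beside PGE2 alone, which was given to 2 wild-type libraries. PGE2 called 318 genes, or 2.97% of those tested, against the same untreated libraries that served as the control for CM. Because the control is shared, only values are set side by side. Stat3 differed from untreated by 1.93 ± 0.13 with CM and 1.99 with PGE2, Crem by 1.98 ± 0.19 and 2.23, and Ncr1 by -1.92 ± 0.17 and -1.69. In the direct test of CM against PGE2, edgeR called 0 genes (0%), with 295 at an unadjusted p under 0.05, and DESeq2 also called 0. For Tgfb1 the direct difference of CM from PGE2 was 0.35 ± 0.19 on the log2 scale (adjusted p = 1), and for Gzmb -0.34 ± 0.28 (adjusted p = 1). A missed threshold with 2 libraries on one side does not show that the treatments act alike.

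The EP2KO libraries responded to CM with much of the same set of genes. There, CM called 469 genes (4.37%), of which 327 were also called in the same direction in wild type and 0 in the opposite direction. The 327 were 37% of the wild-type calls and 69.7% of the EP2KO calls, and the libraries of these genotypes are separate. Crem was at 72.3, 62.6, 67.4 and 83.0 CPM in untreated and 239, 296, 435 and 222 CPM in CM-treated EP2KO libraries (log2 difference 2.06 ± 0.19, adjusted p = 2.97e-12). Of the 30 ribosome biogenesis genes, 16 were lower there too. The test of the difference in CM effect between EP2KO and wild type called 0 genes by edgeR (0%) and by DESeq2, with 346 at an unadjusted p under 0.05 by edgeR. The EP2KO count was 304 without CM replicate 3 of that genotype.

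The DKO libraries gave no call. CM against untreated called 0 genes there by edgeR (0%), with 485 at an unadjusted p under 0.05 and a smallest adjusted p of 0.472, and 0 by DESeq2. Stat3 was at 172, 223 and 209 CPM in untreated and 260, 316 and 270 CPM in CM-treated DKO libraries. These groups did not overlap, but the difference of 0.49 ± 0.15 on the log2 scale was not called (adjusted p = 0.818). How many of all genes tested lacked overlap in DKO cells was not counted. Crem was at 78.8, 101 and 77.1 CPM and at 85.7, 134 and 105 CPM, overlapping groups. The levels of Ptger2 and Ptger4 do not check these labels. The libraries read the end of the transcript, and which exons were deleted is not given in the sources used here. Ptger4 was at 35.9, 40.8 and 46.7 CPM in untreated DKO libraries, above the 14.5 to 29.5 CPM of untreated wild type.

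The difference in CM effect between DKO and wild type was tested directly and was called for 30 genes (0.28%). For 25 genes (0.233%) the effect was lower in DKO, and for 5 (0.0466%) it was higher, the latter being smaller falls. The 25 included Cnnm2, Ier5l, Abcb1b, Vegfa, Crem, Fosl2, Dgat1, Rptor, Trf, Stat3, Parp8, Irs2, Rgs2, Rgs1, Bach2, Abcb1a, P2ry10, Pde4b, Tnfaip3, Atp10a, Rhoq, Hif1a, Plekha2 and Rab8b. The 5 were St3gal6, Ncr1, Ptpn6, Pim2 and Chn2. Stat3 had the smallest p, with effects that differed by -1.44 ± 0.20 on the log2 scale (adjusted p = 1.1e-05). Cnnm2, which encodes a magnesium transport protein, was at 9.45, 9.57, 11.4 and 13.3 CPM in untreated and 31.1, 35.9, 41.1 and 44.4 CPM in CM-treated wild type. In DKO it was at 14.8, 12.6 and 16.3 CPM and then 9.82, 13 and 6.45 CPM, and the effects differed by -2.33 ± 0.35 (adjusted p = 5.09e-05). Ncr1 was at 177, 234 and 186 CPM and at 129, 119 and 136 CPM in DKO, a fall of smaller size than in wild type by 1.29 ± 0.24 (adjusted p = 0.00265). The count of 30 was between 10 and 38 with 1 library left out. It was below 20 without untreated replicate 1, 2 or 4 or CM replicate 1 or 4 of wild type, and without untreated replicate 2 or 3 or CM replicate 1 or 3 of DKO.

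**Figure D4:**
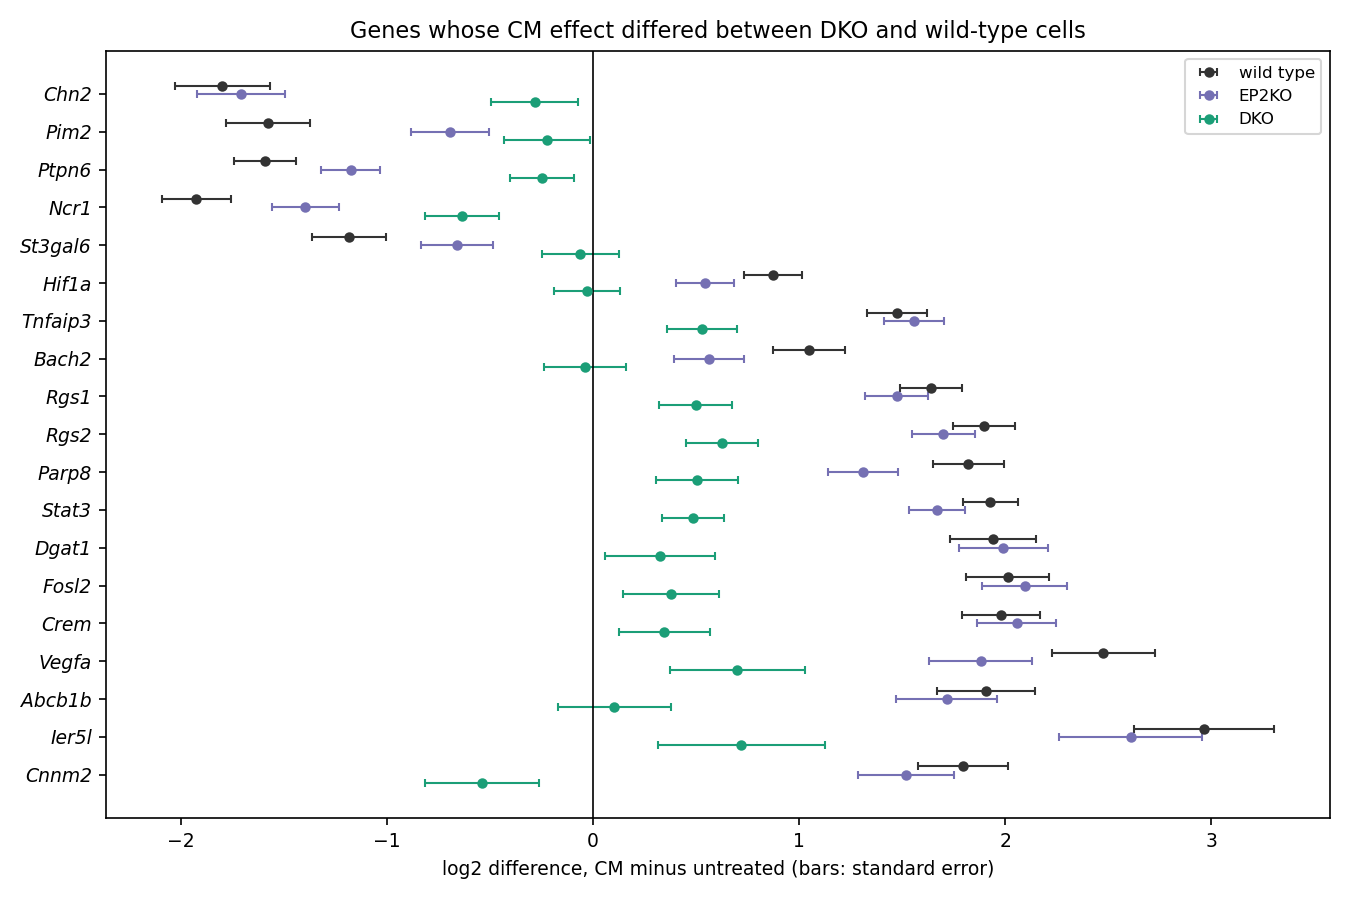
Log2 difference of CM minus untreated (horizontal axis, bars are SE) in wild-type, EP2KO and DKO cells for the 19 named genes whose CM effect differed between DKO and wild type. For Stat3 the points are at 1.93 in wild type, 1.67 in EP2KO and 0.49 in DKO cells.

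Genes called in wild type kept their direction in most cases even where nothing was called. Of the 488 higher genes, 429 (87.9%) had a positive difference in DKO cells, with a median of 0.24 against 0.74 in wild type and 0.50 in EP2KO. Of the 395 lower genes, 353 (89.4%) had a negative difference in DKO, with a median of -0.23 against -0.76 in wild type and -0.48 in EP2KO. About 50.1% of all tested genes had a positive difference in DKO. The genes were chosen on their wild-type values, which makes the wild-type medians larger by choice, so these medians carry no test. The TGF-beta list had a median of 0.34 in DKO, against 0.38 in wild type, while the cyclic AMP list had 0.25 against 0.47 and ribosome biogenesis -0.26 against -0.58. For Pmepa1 the effects in DKO and wild type differed by -0.79 ± 0.33 (adjusted p = 0.681). The DKO libraries also differed from the others in sex-linked genes. Xist was at 34.1 to 63.6 CPM in DKO and 500.1 to 808.8 CPM in wild type, and the Y-linked Ddx3y at 51.2 to 96.8 CPM and 1.60 to 5.84 CPM. Sex and receptor genotype therefore cannot be told apart between DKO and wild-type cells.

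**Figure D5:**
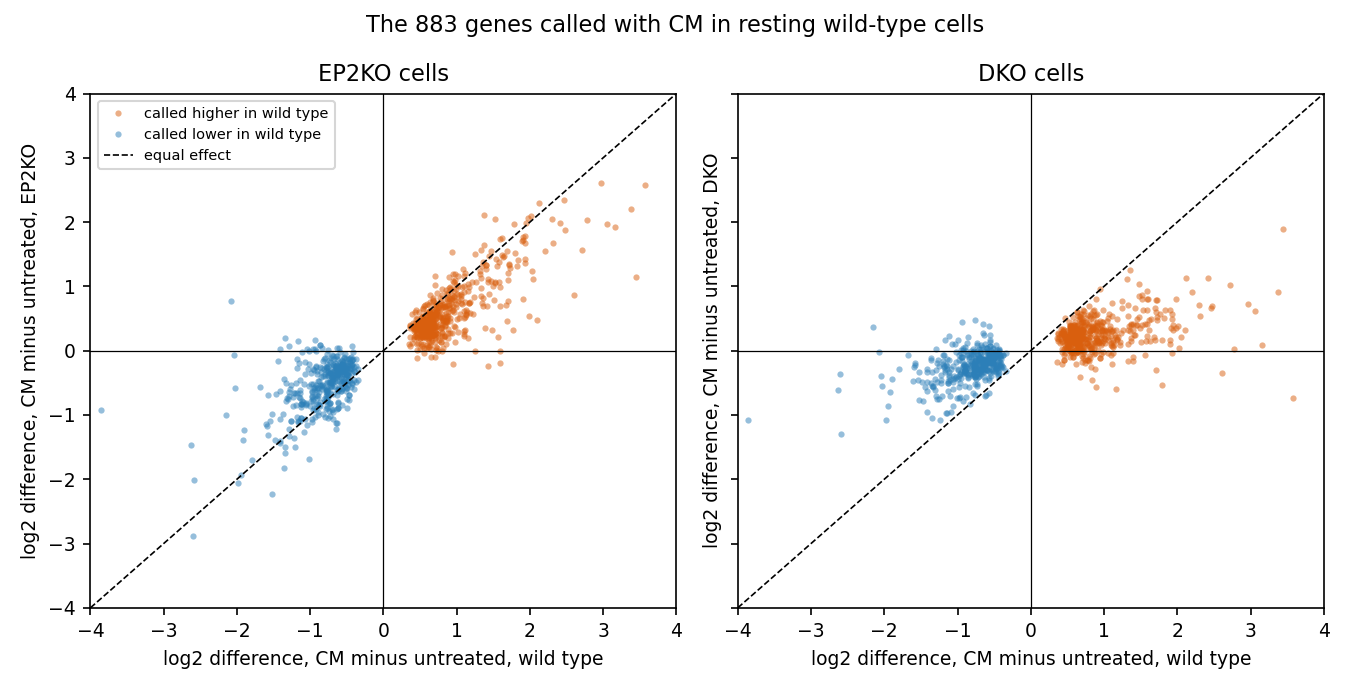
Each of the 883 genes called with CM in resting wild-type cells, by its log2 difference in wild type (horizontal axis) and in EP2KO or DKO cells (vertical axes). Points called higher and lower in wild type differ in colour, and the dashed line marks equal effects. Most points keep their sign, with a median among the higher genes of 0.50 in EP2KO and 0.24 in DKO.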

How the data were processed

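The authors deposited 1 table of raw counts per gene symbol, with 36273 genes and 64 libraries. The libraries read transcript 3' ends and carried barcodes and molecular identifiers, per the labels' protocols. The sources used here do not give the aligner, the annotation or whether identifiers were collapsed before counting. GRCm38 (mm10) is the build, and DESeq2 a tool, that the submitters' processing notes name.

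All 64 libraries in 18 groups were fitted together with edgeR 4.0.16 (R 4.3.3), with TMM scaling, robust quasi-likelihood tests and genes kept by filterByExpr at a minimum count of 10. This left 10723 genes with 99.21% of the counts. P-values were Benjamini-Hochberg adjusted over all of them. SE is the absolute log2 difference divided by the square root of F. In data simulated for the wild-type CM comparison (10723 genes), 22.4% of 1.5-fold, 59.7% of 2-fold and 92.4% of 4-fold changes were recovered. For CM in DKO cells the shares were 8.96%, 62.7% and 90.9%, and for the DKO-minus-wild-type effect 2.99%, 25.4% and 72.7%. Only 66 or 67 genes were changed at each fold, none of them weakly detected, and all other means were equal between groups. The real comparisons differ in these respects, so their rates may differ. In no pair of replicates of a resting group compared here did counts agree within sampling noise.

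The members and gene lists were chosen with earlier results of these data known, and lists are described by counts and medians only. Named genes were the 15 largest called rises and falls without overlap at a mean log2 CPM of at least 4, the 8 largest called CPM differences each way, up to 4 called genes per list by smallest p, a fixed set (Ptger2, Ptger4, Crem, Nr4a1, Stat3, Ifng, Gzmb, Gzma, Prf1, Ccl5, Xcl1, Ncr1, Myc), and the 8 largest called genes each way in the tests of CM against PGE2 and of genotype. Other called members are named from their lists, and Nop2 and Tsr1 were chosen after their promoters were seen. Values of a few called genes are not reported here. Gene spans and coordinates came from GENCODE M21, matching 10579 of the tested symbols. Library summaries were compared by exact permutation (scipy). Alternatives were DESeq2 (1.42.0), its size factors in edgeR, other filters, only the compared groups, a replicate block, each library left out and, added after seeing the data, no mitochondrial genes and list counts under each setting. Strand use in counting is not given, so overlapping antisense genes cannot be told apart.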

Additional observations from a re-analysis of the deposited data

Results flagged for a closer look

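In groups of 4 libraries, single values stood apart from the other 3 by more than Dixon's 95% limit for 14 gene values and 1 marker share, of 276 groups of values screened, where chance, at about 1 in 20, gives about 13.8. Untreated replicate 1 was lowest for Il21r (21.8 CPM against 25.5 to 25.8), Il2rb (796 against 845 to 853) and Flt3l (40.0 against 54.3 to 55.7). Untreated replicate 2 was highest for Serpina3f (55.0 CPM against 29.5 to 33.4) and for the share of macrophage and dendritic-cell markers (0.0278% against 0.0130% to 0.0154% of counts). That share was also highest in replicate 2 of the wild-type CM libraries (0.0299% against 0.011% to 0.015%). It was 0.0275% in PGE2 replicate 2 and 0.0124% in PGE2 replicate 4. Untreated replicate 3 was highest for Gna13 (74.3 CPM against 66.5 to 67.8), and untreated replicate 4 was lowest for Bach2 (49.8 CPM against 67.6 to 67.8). Among CM libraries, replicate 1 was lowest for mt-Rnr1 (28295 CPM against 41101 to 42010) and Il27ra (6.81 against 8.20 to 8.26) and highest for Fdps (20.4 against 16.4 to 16.5). CM replicate 2 was highest for Ccnd3 (93.3 CPM against 65.2 to 66.0) and St3gal6 (61.5 against 48.5 to 50.6). CM replicate 3 was lowest for Gna13 (89.0 CPM against 119 to 123) and Slc1a5 (45.2 against 52.3 to 52.6), and CM replicate 4 was lowest for Ltb (136 CPM against 142 to 144).

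The effect of CM differed between DKO and wild-type cells in the direct test for 19 named genes. As log2 differences, DKO minus wild type with SE, the largest negative values were -2.33 ± 0.35 for Cnnm2, -2.24 ± 0.54 for Ier5l, -1.80 ± 0.36 for Abcb1b and -1.78 ± 0.43 for Vegfa. Crem (-1.63 ± 0.29), Fosl2 (-1.63 ± 0.31), Dgat1 (-1.62 ± 0.34), Stat3 (-1.44 ± 0.20), Parp8 (-1.32 ± 0.26) and Rgs2 (-1.27 ± 0.23) followed. The remaining negative values were -1.14 ± 0.23 for Rgs1, -1.09 ± 0.27 for Bach2, -0.94 ± 0.22 for Tnfaip3 and -0.90 ± 0.21 for Hif1a. The positive values, for genes lower with CM in wild type, were 1.51 ± 0.31 for Chn2, 1.35 ± 0.29 for Pim2, 1.34 ± 0.22 for Ptpn6, 1.29 ± 0.24 for Ncr1 and 1.12 ± 0.26 for St3gal6. The adjusted p ran from 1.1e-05 for Stat3 to 0.0455 for Ier5l and Bach2, and these 2 genotypes also differed in sex-linked genes.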

How the results depend on the processing

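The CM count in wild type stayed within 1.5 times of 883 with DESeq2's size factors, DESeq2 itself, no low-count filter, a minimum count of 30 and no mitochondrial genes. It was 1759 with only the libraries of the compared groups, where 8320 genes were tested and the spread came from those libraries. With 1 library left out it ran from 486 to 870. For PGE2 the range was 132 (without PGE2 replicate 2) to 320, with 163 without PGE2 replicate 4, each with the spread of the 1 remaining PGE2 library taken from the other groups. For EP2KO it was 304 to 403, and for the difference between DKO and wild type 10 to 38. That difference gave 54 genes with DESeq2 and 68 with only the compared groups. CM in DKO and CM against PGE2 each gave 1 gene with only the compared groups and 0 with any library left out. The causes were not tested. Replicate numbers were not taken to pair the libraries, since not every same-numbered pair of deviations correlated above 0.1 (0.15, 0.36, -0.06 and 0.12 in wild type, 0.25, 0.07, 0.20 and 0.28 in EP2KO). As a hint from the data and not the design, 3 of 4 untreated wild-type libraries correlated best with their own number. Neutrophil-marker shares also partly followed the number. In wild-type replicates 1 to 4 they were 0.0069%, 0.0331%, 0.0112% and 0.0056% of untreated counts. With CM they were 0.0075%, 0.0400%, 0.0153% and 0.0091%. In EP2KO, replicate 3 was lowest in both groups (0.0140% and 0.0113%). Whether same-numbered libraries share a source was not tested. With a replicate block the counts were 1755 (CM, wild type), 679 (PGE2), 1 (CM against PGE2), 833 (EP2KO), 9 (DKO) and 108 (DKO minus wild type). The EP2KO-minus-wild-type count was 0 under every setting run. Of 117 named calls, 83 held under every setting with a value, and the most were lost without untreated replicate 1 (25). Ptger2, not called, ran from -0.011 without untreated replicate 4 to 0.37 without untreated replicate 1. The uncalled differences in marker shares also changed sign with 1 library left out, from -0.00396 to 0.00339 percentage points for macrophages and dendritic cells and from -0.00357 to 0.0101 for neutrophils. These are differences of unpaired means. Taken by replicate number, the neutrophil share was higher with CM in each wild-type pair.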

Other observations

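Annotated gene length also differed between higher and lower genes with PGE2, which shares its untreated libraries with the wild-type CM comparison, and in EP2KO cells, which do not. With PGE2 the 205 higher genes had a median span of 57.6 kb and the 113 lower genes 13.8 kb, and in EP2KO cells with CM the 239 higher genes had 46.9 kb and the 230 lower genes 20.9 kb, against 21.3 kb for all genes tested. In exonic length the wild-type CM medians were 6.85 kb for the higher and 3.0 kb for the lower genes, against 4.33 kb for all. With the tested genes in 4 equal groups by span, 262 of the longest group (over 49.4 kb) were called higher and 48 lower with CM in wild type, and in the shortest group (up to 8.13 kb) 51 and 142. Mitochondrially encoded genes did not move together. Of 10 tested, mt-Co1 and mt-Rnr1 were higher and mt-Nd3 was lower with CM. The cause of the length difference was not tested.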
